A study of Mus musculus with 12 samples.

Results

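The genes described here encode the protein subunits of oxidative phosphorylation that are carried in the nuclear genome. Members were the mouse genes whose symbol starts with Nduf plus a, b, c, s or v and a digit, with Cox4 to Cox8, with Uqcr or with Atp5, and the Sdha to Sdhd genes, on an Illumina bead array. 78 named genes matched, and 73 of them entered the tests because 4 or more of the 12 arrays gave at least 1 of their probes a detection p under 0.05. These 73 stand among 11018 genes tested in all, each represented by its brightest tested probe. They comprised 33 genes of complex I, 3 of complex II, 6 of complex III, 14 of complex IV and 16 of complex V, with Cox7a2l, a supercomplex assembly factor, counted apart. The 5 matched genes that were not tested were Ndufs1, Sdha, Cox7b2 and Cox8c, whose probes were detected on 0 arrays, and Uqcrfs1, whose probes were detected on 0 and 3 arrays.

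The RNA came from primary cardiac fibroblasts of female C57/BL6 mice aged 10-16 weeks, grown in medium with 10% fetal calf serum. 4 arrays held untreated control cells, 4 held cells given 200 nmol/L CCN2 and 4 held cells given 500 nmol/L GDF15, and the treatment protocol states 48 hours for all groups, although the control labels themselves carry no time. CCN2, the former connective tissue growth factor, is a matricellular protein that cells secrete, GDF15 is a secreted cytokine of the TGF-beta superfamily, and the series title presents GDF15 as a factor under the control of CCN2 in the heart. Nothing in the labels ties the replicate arrays to separate cultures or mice, so each p-value reflects only array-to-array spread, part or all of which may be technical.

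The fibroblast label was checked against marker genes. All 10 fibroblast markers were measured, with a summed normalized intensity of 51780 to 55354 on control arrays, 41433 to 44232 on CCN2 arrays and 48751 to 58225 on GDF15 arrays. Macrophage markers, 9 of 11 measured, summed to 31143 to 34746 in control and 9601 to 10722 after CCN2, so the cultures also carried macrophage transcripts. Of 13 cardiomyocyte markers 5 were tested, and probes of Ryr2 and Ckm were detected on no array. Between 18009 and 19691 probes were detected per array, and arrays of a group correlated at 0.987 to 0.996 over the tested probes. In bulk RNA of this kind, fewer cells of a type and less RNA per cell cannot be told apart.

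Oxidative phosphorylation is the final stage of respiration in the inner mitochondrial membrane. Complexes I and II pass electrons from NADH and succinate to ubiquinone, complex III passes them on to cytochrome c, and complex IV, cytochrome c oxidase, hands them to oxygen. Complexes I, III and IV pump protons while doing so, and complex V, the ATP synthase, uses the returning protons to make ATP. A few catalytic subunits are encoded by mitochondrial DNA and fall outside the rule. Several nuclear subunits of complex IV exist as isoforms tied to tissue or oxygen supply, among them the heart and skeletal muscle isoforms Cox6a2, Cox7a1 and Cox8b and the oxygen-responsive isoform Cox4i2. Cardiac fibroblasts, which build the matrix of the heart, hold far fewer mitochondria than cardiomyocytes do.

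Most members gave bright signals in every group. 70 of the 73 were detected on all 12 arrays, and the median normalized log2 intensity over the members was 10.3, against 6.91 over all genes tested. The 3 members not detected throughout all belong to complex IV. Cox4i2 was detected on 2 of 4 control arrays and on all CCN2 and GDF15 arrays. Cox8b was detected on 4 of 4 control arrays, on 0 of 4 CCN2 arrays and on 3 of 4 GDF15 arrays. Cox6b2, the testis isoform of its subunit, was detected on 3 of 4 control, 2 of 4 CCN2 and 2 of 4 GDF15 arrays. Intensities of different probes are not comparable as transcript amounts, so these medians and the marker sums describe probe signal only. Apart from them, levels are set side by side only within a gene.

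CCN2 changed a small set of respiratory chain transcripts while most members did not pass the test. Cox4i2 rose 4.84-fold and its constitutive partner Cox4i1 fell. The muscle isoforms Cox8b and Cox6a2 fell, and the muscle isoform Cox7a1 rose. The complex I accessory subunit Ndufa6 and the supercomplex factor Cox7a2l fell. Of the 73 members, 6 were higher and 14 lower at an adjusted p under 0.05 in limma, and 53 did not pass. That is 27.4% of the members called, where 55.9% of all genes tested were called, 25.7% higher and 30.2% lower. The members' called share was thus below the background in both directions, at 8.22% higher and 19.2% lower. Only 3 members, 4.11%, were called with a difference of at least 1.5-fold (Cox4i2, Cox8b and Ndufa6), against 27.9% of all genes tested.

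The members' differences after CCN2 also spread less than those of other genes. Their median log2 difference from control was -0.07 and their interquartile range 0.26, against a median of -0.02 and an interquartile range of 0.62 over all genes tested. The median standard error was 0.091 for the members and 0.101 for all genes. 47 members lay below 0 and 26 above. The balance between higher and lower calls depended on how the arrays were scaled to each other. When arrays were scaled by their medians and not quantile-normalized, 2 members were higher and 19 lower, and the median over the members was -0.17. That scaling moved the median of all tested probes from 5.3e-04 to -0.17, next to the same value for the members. Leaving out any single control or CCN2 array gave 9 to 11 lower members in place of 14. The count was 9 without control replicate 2, CCN2 replicate 2 or CCN2 replicate 4. The called share of all tested probes also fell in these fits, from 51.3% to between 47.6% and 49%.

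**Figure D1:**
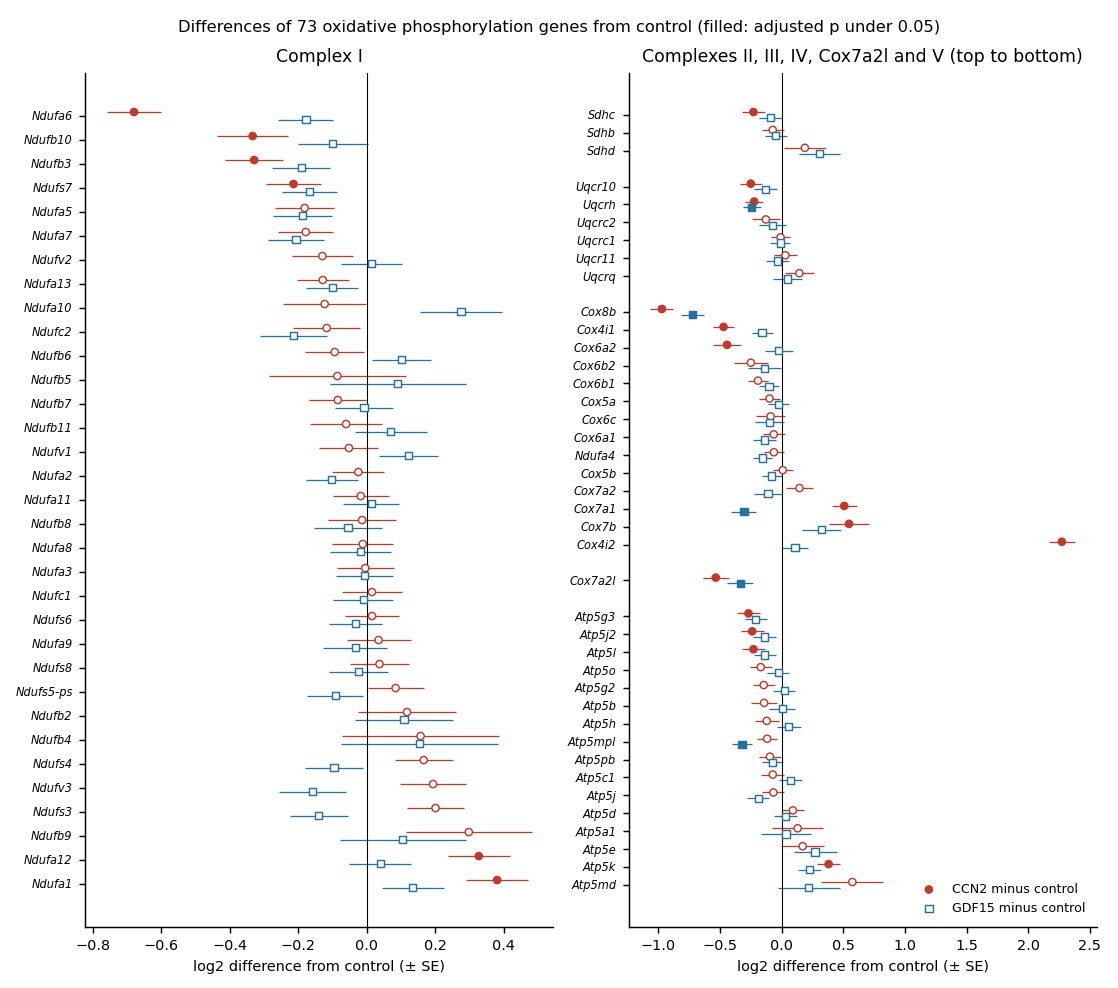
Log2 difference from control (x axis, ± SE of the limma fit) for each of the 73 members, with CCN2 as circles and GDF15 as squares, filled where the adjusted p was under 0.05, and ordered by complex and by the CCN2 difference. Cox4i2 stands alone on the right at 2.27, Cox8b lies lowest at -0.97, and 56 of the 73 members lie within 0.25 of 0 after CCN2.

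**Figure D2:**
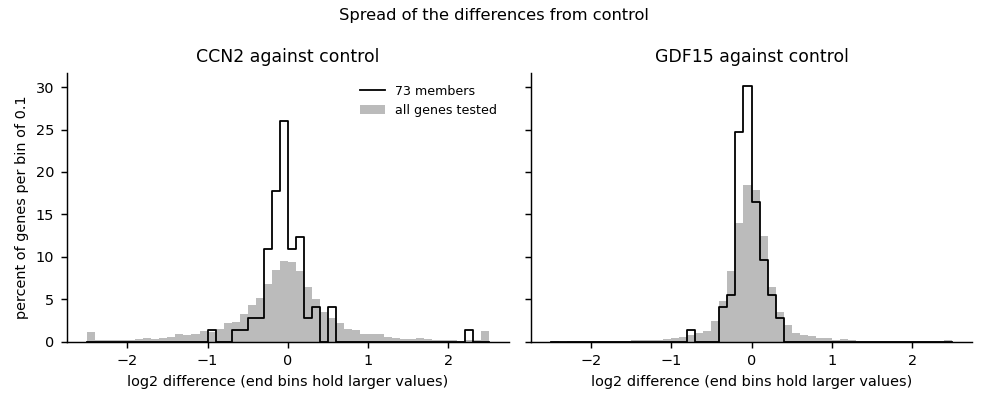
Percent of genes per bin of 0.1 (y axis) against the log2 difference from control (x axis) for all 11018 genes tested (grey bars) and the 73 members (line), for CCN2 on the left and GDF15 on the right. The members' line is narrower than the bars after CCN2, with interquartile ranges of 0.26 and 0.62, and less so after GDF15, with 0.18 and 0.29.

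The strongest change was an isoform contrast in complex IV subunit 4, a regulatory subunit of cytochrome c oxidase. Cox4i2, on chromosome 2, read 4.76, 4.48, 4.56 and 4.52 on the control arrays, 7.12, 6.89, 6.85 and 6.56 on the CCN2 arrays, and 4.82, 4.61, 4.62 and 4.71 on the GDF15 arrays, in normalized log2 intensity. All 4 CCN2 arrays lay far above the other 8, and GDF15 overlapped control. The CCN2 difference was 2.27 ± 0.11 (SE, n = 4 per group; limma adjusted p = 1.34e-11). The offset added before taking logs shrinks differences of dim probes, and 2 control arrays did not detect the probe, so the 4.84-fold size is tied to that scale.

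Cox4i1, the isoform present in most tissues, on chromosome 8, moved the other way. It read 12.40, 12.31, 12.11 and 12.35 in control, 11.80, 11.83, 11.83 and 11.83 after CCN2, and 12.19, 12.00, 12.23 and 12.12 after GDF15. The CCN2 arrays lay tightly together below all the others. The fall after CCN2 was 1.39-fold (log2 -0.47 ± 0.09 SE, limma adjusted p = 0.000169), and the GDF15 difference of -0.16 did not pass (limma adjusted p = 0.221).

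The 3 muscle isoforms of complex IV did not move together after CCN2. Cox8b, on chromosome 7, read 5.20, 5.29, 5.26 and 5.43 in control, 4.30, 4.15, 4.57 and 4.27 after CCN2, and 4.48, 4.63, 4.59 and 4.58 after GDF15. Control lay above both treated groups without overlap. Because no CCN2 array detected its probe, the fall is given as a bound, at least 1.62-fold on the scale used (limma adjusted p = 1.44e-07, group means 5.29 ± 0.10 and 4.32 ± 0.18 SD, n = 4). Over 16 alternative settings the Cox8b difference after CCN2 ran from -1.06 to -0.44 and the call was kept. The bound is therefore tied to the offset and scaling of the main fit. Cox6a2, also on chromosome 7, read 6.68, 6.62, 6.75 and 6.51 in control, 6.29, 5.89, 6.43 and 6.20 after CCN2, and 6.80, 6.58, 6.67 and 6.44 after GDF15. Its CCN2 arrays lay below all control arrays, with a fall of 1.36-fold (log2 -0.44 ± 0.11 SE, limma adjusted p = 0.0032).

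Cox7a1, the third of these isoforms and again on chromosome 7, rose after CCN2. It read 6.11, 6.11, 5.96 and 5.90 in control, 6.63, 6.33, 6.55 and 6.62 after CCN2, and 5.50, 5.86, 5.85 and 5.66 after GDF15. The CCN2 arrays lay above control and the GDF15 arrays below, with no overlap between any of the groups. The rise was 1.42-fold (log2 0.51 ± 0.10 SE, limma adjusted p = 0.00045). With median scaling it was 0.22 and did not pass (limma adjusted p = 0.161). The counterparts of these isoforms found in most tissues were not called after CCN2, with Cox6a1 at -0.06 and Cox7a2 at 0.14, the latter -0.14 under median scaling. Cox8a was not analysed here.

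Cardiomyocyte markers changed beside the muscle isoforms. 3 of the 5 measured markers were lower and 0 higher after CCN2 (Nppa -1.85, Myl2 -0.85 and Actc1 -0.60), where 30.2% of all genes tested were lower. Mb at -0.34 (limma adjusted p = 0.145) and Myl3 at -0.18 (limma adjusted p = 0.58) did not pass. The summed intensity of the 5 was 420 to 526 in control, 192 to 284 after CCN2 and 353 to 435 after GDF15. This sum leans on Nppa, the brightest of the 5 probes in control (mean log2 8.13). Their part in the Cox8b and Cox6a2 results was not tested.

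**Figure D3:**
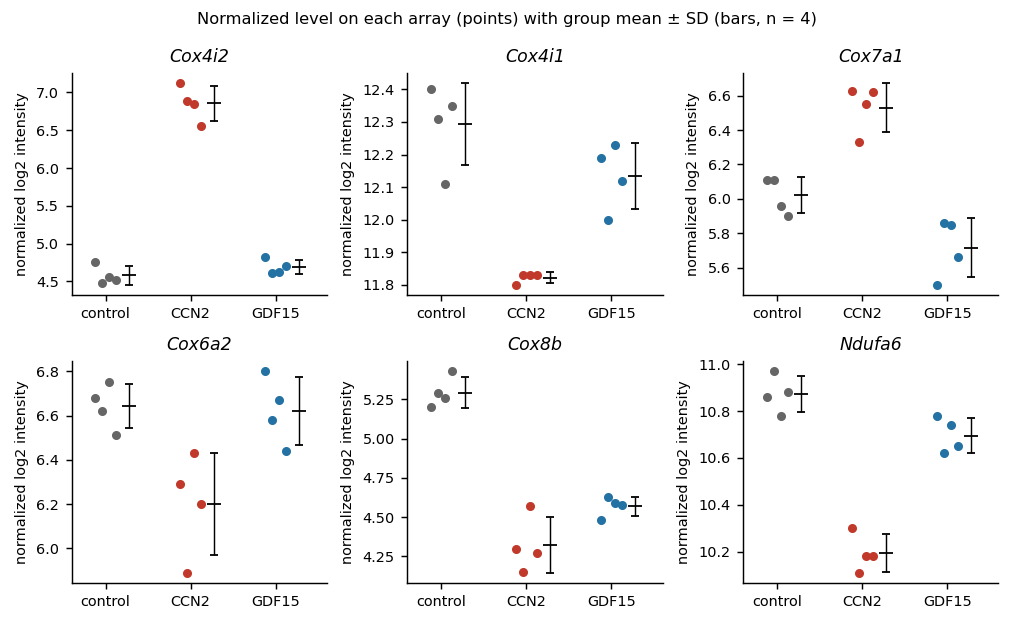
Normalized log2 intensity (y axis) on each of the 12 arrays for 6 members, with the group mean ± SD beside the points (n = 4). The CCN2 arrays lie apart from control for all 6 genes, above it for Cox4i2 and Cox7a1 and below it for Cox4i1, Cox6a2, Cox8b and Ndufa6.

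Of the other complex IV genes, Cox7b, a small subunit encoded on the X chromosome, rose after CCN2. Its arrays read 7.02, 7.32, 7.05 and 7.17 in control and 7.52, 7.87, 7.53 and 7.81 after CCN2, without overlap. The difference was 0.55 ± 0.16 (SE; limma adjusted p = 0.00833), and it was 0.26 under median scaling (limma adjusted p = 0.215). The other 8 complex IV genes did not pass after CCN2 and lay between -0.25 and 0.14, among them Cox5a, Cox5b, Cox6b1 at -0.19, Cox6b2 at -0.25, Cox6c and Ndufa4, a complex IV subunit despite its name, at -0.06. Cox6b1 passed under 5 other settings, which were median scaling (-0.28, limma adjusted p = 0.0274), the authors' processed values (limma adjusted p = 0.0362), an offset of 50 (limma adjusted p = 0.0216), no detection filter (limma adjusted p = 0.0426) and the trend and robust prior (limma adjusted p = 0.0277). Cox6b2 passed without control replicate 3 (-0.36, limma adjusted p = 0.0345). Cox7a2l, known to join complexes III and IV into supercomplexes and carried by C57BL/6 strains in a shortened form, read 11.10, 10.79, 10.81 and 10.89 in control, 10.65, 10.18, 10.37 and 10.26 after CCN2, and 10.67, 10.54, 10.56 and 10.47 after GDF15. Control lay above both treated groups. It fell by 0.53 on the log2 scale after CCN2 (1.45-fold, limma adjusted p = 0.00039).

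In complex I, the entry point for NADH electrons, 2 of 33 genes were higher and 4 lower after CCN2, and 27 did not pass. That is 6.06% higher and 12.1% lower, against 25.7% and 30.2% of all genes. Ndufa6, an accessory subunit of the LYR family that binds the mitochondrial acyl carrier protein, on chromosome 15, read 10.86, 10.97, 10.78 and 10.88 in control, 10.30, 10.11, 10.18 and 10.18 after CCN2, and 10.78, 10.62, 10.74 and 10.65 after GDF15. The CCN2 arrays were well below all others, and the GDF15 arrays lay just under control, the nearest arrays of the 2 groups both at 10.78. The fall after CCN2 was 1.60-fold (log2 -0.68 ± 0.08 SE, limma adjusted p = 1.6e-06). The membrane arm subunits Ndufb3 (-0.33, limma adjusted p = 0.00347) and Ndufb10 (-0.33, limma adjusted p = 0.0123) fell as well, and for Ndufb10 1 CCN2 array, at 9.26, reached into the control range of 9.20 to 9.38. Ndufs7, an iron-sulfur core subunit, fell by 0.21 (limma adjusted p = 0.0369), named here because it completes the count. Its call was not followed through the alternative settings.

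The 2 complex I genes that rose were Ndufa1 and Ndufa12. Ndufa1, a short membrane subunit encoded on the X chromosome, read 11.38 to 11.66 in control and 11.81 to 11.90 after CCN2 (log2 0.38 ± 0.09 SE, limma adjusted p = 0.00199). Ndufa12, an accessory subunit of the matrix arm, read 9.45 to 9.68 in control and 9.80 to 10.10 after CCN2 (log2 0.33 ± 0.09 SE, limma adjusted p = 0.00581), and was 0.13 under median scaling (limma adjusted p = 0.359). The 27 uncalled genes lay between -0.18 and 0.30. They include the core subunits Ndufs3, Ndufs8, Ndufv1 and Ndufv2 and Ndufs4, the accessory subunit whose loss causes Leigh syndrome in humans. They also include Ndufs5-ps, annotated as a pseudogene, whose probe may read transcripts of Ndufs5.

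Promoters are shown for the members among the 6 plotted genes that the promoter table held, so that a reader can see the sequence around their start sites. Each window runs from 250 bases before to 50 bases after the start, in RefSeq GRCm38.p6. Ndufa6 lies at chr15:82354242-82354541 on the minus strand, Cox8b at chr7:140900397-140900696 on the minus strand and Cox7a1 at chr7:30183921-30184220 on the plus strand. Capitals mark matches, on either strand, to the motifs searched, which were TGCGCA (the core of the NRF1 motif), CCGGAAG (ETS and GABPA), AGATGGC (YY1), AAGGTCA (an ERR monomer site) and ACGTG (the hypoxia response core).
Ndufa6: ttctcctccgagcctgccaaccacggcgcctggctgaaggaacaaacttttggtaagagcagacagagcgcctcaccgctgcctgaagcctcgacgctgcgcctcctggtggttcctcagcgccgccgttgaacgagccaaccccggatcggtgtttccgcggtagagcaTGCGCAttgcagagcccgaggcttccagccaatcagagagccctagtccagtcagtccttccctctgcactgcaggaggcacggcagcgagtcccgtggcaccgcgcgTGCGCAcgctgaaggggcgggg
Cox8b: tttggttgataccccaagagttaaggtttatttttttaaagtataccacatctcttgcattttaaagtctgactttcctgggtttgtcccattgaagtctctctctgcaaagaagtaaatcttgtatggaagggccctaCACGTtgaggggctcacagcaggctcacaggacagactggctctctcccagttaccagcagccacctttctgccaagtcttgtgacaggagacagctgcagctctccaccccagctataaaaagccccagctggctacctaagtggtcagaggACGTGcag
Cox7a1: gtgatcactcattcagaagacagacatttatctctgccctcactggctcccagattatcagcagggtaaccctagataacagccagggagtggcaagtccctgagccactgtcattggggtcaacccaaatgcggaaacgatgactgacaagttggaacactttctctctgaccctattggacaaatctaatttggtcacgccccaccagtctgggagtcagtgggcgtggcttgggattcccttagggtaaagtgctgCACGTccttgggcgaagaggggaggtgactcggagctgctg

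The Ndufa6 window, 65% G and C, held TGCGCA at bases 171 to 176 and 279 to 284. The Cox8b window, 48.3% G and C, held ACGTG at bases 140 to 144, read on the opposite strand, and at 293 to 297. The Cox7a1 window, 53% G and C, held it once, at bases 260 to 264 on the opposite strand. Over the 66 promoters of the 61 members in the table, TGCGCA occurred in 25.8%, against 7.76% of all 32851 promoters of the same length. CCGGAAG occurred in 24.2% against 8.86%, AGATGGC in 15.2% against 6.4%, AAGGTCA in 10.6% against 4.72% and ACGTG in 24.2% against 19.6%. The members' promoters had a median G and C content of 57.5% against 52.7%, and the letters TGCGCA and CCGGAAG are rich in these bases. These are matches of letters, with no binding measured.

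Few genes of complexes II and III passed the test after CCN2. Of complex II, which oxidises succinate and is also part of the tricarboxylic acid cycle, 1 of 3 tested subunits was lower and 0 higher, the membrane anchor Sdhc, against 30.2% of all genes lower. It read 9.93, 9.97, 9.79 and 10.08 in control and 9.78, 9.66, 9.73 and 9.69 after CCN2, and the groups met within 0.01. Its difference of -0.23 barely passed (limma adjusted p = 0.049) and lost its call when any of the 8 control and CCN2 arrays but control replicate 3 was left out, with no detection filter (limma adjusted p = 0.0568) and with the mean of its probes (limma adjusted p = 0.133). Under median scaling it was -0.41 (limma adjusted p = 0.00264). The iron-sulfur subunit Sdhb, at -0.07, and the other anchor Sdhd, at 0.19, did not pass, and Sdhd was -0.09 under median scaling.

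In complex III 2 of 6 genes were lower and 0 higher, 33.3% lower against 30.2% of all genes. Uqcrh, the hinge protein that docks cytochrome c1, read 12.17, 12.23, 12.22 and 12.19 in control, 12.01, 11.95, 11.98 and 11.97 after CCN2, and 12.05, 11.91, 11.98 and 11.90 after GDF15. Both treated groups lay below control without overlap, and the CCN2 difference was -0.22 ± 0.07 (SE; limma adjusted p = 0.0168). The Uqcrh call after CCN2 was not followed through the alternative settings. Uqcr10, a small accessory subunit, fell by 0.25 (limma adjusted p = 0.0287), and its second probe gave -0.24 (limma adjusted p = 0.0253). The Uqcr10 call was lost without control replicate 2 or 3 or CCN2 replicate 2 or 4. The core proteins Uqcrc1 and Uqcrc2 were at -0.01 and -0.13 and did not pass.

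In complex V, 1 of 16 genes was higher and 3 lower after CCN2, 6.25% and 18.8% against 25.7% and 30.2% of all genes. Atp5k, the e subunit of the dimer interface, read 5.31, 5.26, 5.13 and 5.41 in control and 5.65, 5.57, 5.74 and 5.67 after CCN2, without overlap (log2 0.38 ± 0.09 SE, limma adjusted p = 0.00264). It was 0.15 under median scaling (limma adjusted p = 0.33). This probe was dim, at a mean of 5.48, and the second, still dimmer probe gave 0.06 (limma adjusted p = 0.669). With the mean of its probes Atp5k stood at 0.22 (limma adjusted p = 0.033). The 3 lower genes were Atp5g3, which encodes the c subunit of the rotor ring (-0.27, limma adjusted p = 0.02), Atp5j2, the f subunit (-0.24, limma adjusted p = 0.0444), and Atp5l, the g subunit (-0.23, limma adjusted p = 0.0431). All 3 calls were lost under median scaling, at -0.22, -0.21 and -0.18. The Atp5g3 call was also lost without control replicate 1 or CCN2 replicate 1, that of Atp5l without any control replicate or CCN2 replicate 2 or 4, and that of Atp5j2 without any of the 8 control and CCN2 arrays but control replicate 1. The Atp5l call was lost as well with the mean of its probes (limma adjusted p = 0.0675), and that of Atp5j2 with no detection filter (limma adjusted p = 0.0561). Atp5g2, a second gene for the same c subunit protein, was at -0.15 and did not pass, but under median scaling it was -0.36 and passed (limma adjusted p = 0.0129). The catalytic subunits Atp5a1, at 0.13, and Atp5b, at -0.14, did not pass either.

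Per array, the medians of the complexes lay close to control. The median deviation of the 33 complex I genes from their control means was -0.03 to 0.01 over the control arrays, -0.04 to -0.03 over the CCN2 arrays and -0.11 to -0.01 over the GDF15 arrays. For the 16 complex V genes the ranges were -0.07 to 0.04, -0.12 to -0.06 and -0.09 to 0.01. For the 14 complex IV genes they were -0.04 to 0.04, -0.08 to -0.01 and -0.13 to -0.09, and for the 6 complex III genes -0.01 to 0.05, -0.17 to -0.03 and -0.09 to -0.03. All GDF15 arrays lay below all control arrays for complexes III and IV, and all CCN2 arrays did so for complex III. These medians are descriptions and carry no test.

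25 members had more than 1 tested probe, and the 32 probes that did not represent their gene served as a check. After CCN2, 4 of them were called, 3 higher and 1 lower, where 51.3% of all 20445 tested probes were called. The 3 higher ones belonged to Atp5j, a stalk subunit (0.38), Ndufs6 (0.32) and Ndufv3 (0.35), whose brightest probes read -0.07, 0.02 and 0.19 and were not called. For these 3 genes the call depends on the probe. It also does for called members whose second probe was not called after CCN2. These second probes gave 0.06 for Atp5k, -0.10 for Atp5l, -0.09 for Sdhc and -0.28 for Ndufb10 (limma adjusted p = 0.0568 for Ndufb10). Those of Atp5k and Sdhc were dim, at 4.59 and 4.78. The 1 lower probe was the second of Uqcr10, whose brightest probe was lower as well. After GDF15, 0 of the 32 were called at the adjusted threshold in limma, against 20% of all tested probes, and 1 had an unadjusted p under 0.05. Among the uncalled was the dim second probe of Atp5mpl (level 4.70), at -0.02, while its brightest probe was called lower.

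Most lists of genes that build and feed the respiratory chain held both higher and lower members after CCN2. These lists were chosen with earlier results of these data known. Over all pathway lists, with the hypoxia-linked one below, 52.2% of the 113 distinct genes measured were called after CCN2. That is near the 55.9% of all genes tested, 25.7% higher and 30.2% lower. Of 13 measured assembly factors of complex I, 2 were higher and 3 lower, led by the membrane factor Tmem126b at -0.66 (limma adjusted p = 1.21e-05). Of 10 assembly factors of complexes II, III and V, 4 were higher and 3 lower, with opposite changes of Ttc19, a complex III factor (0.93, limma adjusted p = 5.91e-08) and Bcs1l, which inserts the Rieske protein (-0.70, limma adjusted p = 5.7e-06). Of 20 complex IV assembly factors, 4 were higher and 5 lower, including Cox18, which inserts a mitochondrially made subunit (0.79), Cox20, which chaperones the same subunit (-0.66), and Cmc1, an early assembly factor (-0.65). Other chain genes outside the rule, 9 measured, were 2 higher and 4 lower, with the ATP synthase inhibitor Atpif1 at -0.59, the electron transfer flavoprotein Etfb at -0.54 and cytochrome c, Cycs, at 0.48. Of 10 genes of ubiquinone synthesis, 1 was higher, the hydroxylase Coq7 at 0.86, and 2 were lower.

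Upstream of the chain, 2 of 12 tricarboxylic acid cycle genes were higher and 4 lower after CCN2. For this and the next lists, the shares of all genes tested were 25.7% higher and 30.2% lower. Idh2, the mitochondrial NADP-dependent isocitrate dehydrogenase, fell by 1.64 (limma adjusted p = 5.2e-09), and Dlst and Mdh2 rose by 0.52 and 0.45. Around pyruvate dehydrogenase, 3 of 10 genes were higher and 4 lower. Pdk1, a kinase that switches the enzyme off, rose by 2.12 (limma adjusted p = 1.06e-11), its relative Pdk4 fell by 1.34 (limma adjusted p = 9.15e-10), and the phosphatase Pdp2 rose by 0.90. Of 15 regulators of mitochondrial biogenesis 3 were higher and 2 lower, with Nfe2l2, the oxidative stress factor, at 1.01, the coactivator Ppargc1b at -0.59 and detected on no CCN2 array, and the helicase Twnk at 0.48. Of 6 carriers and porins 3 were higher and 0 lower, led by the porin Vdac3 at 0.71.

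A list of 11 hypoxia-linked genes held 9 measured genes, and all 9 were higher after CCN2. Ndufa4l2 and Bnip3 were not measured. The list was drawn up with earlier results of these data known, Cox4i2 is itself one of the 9, and the count is therefore a description. Its genes are not all mitochondrial, since Hif1a and Epas1 encode oxygen-regulated transcription factors and Egln1 and Egln3 the prolyl hydroxylases that control them. Egln3 rose by 4.56 (limma adjusted p = 6.82e-15), Pdk1 by 2.12 and Cox4i2 by 2.27. Lonp1, a protease, rose by 1.19 (limma adjusted p = 8.16e-08), named after its value was seen. The labels mention no change of oxygen supply.

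Markers of other cell types moved after CCN2 as well. Macrophage markers were lower in 8 of 9 and higher in 0, endothelial markers, which summed to 2458 to 2709 in control and 1242 to 1377 after CCN2, lower in 7 of 7, and smooth muscle and pericyte markers, which summed to 1440 to 1551 and 746 to 903, lower in 5 of 7. Fibroblast markers were lower in 5 of 10, with Tcf21 at -2.69. Of all genes tested, 30.2% were lower. Of 4 brown adipocyte markers only Prdm16 was measured, and it was higher at 0.81, while probes of Ucp1 and Elovl3 were detected on no array. The 1 measured lymphocyte marker did not pass. The part of these shifts in the members' changes was not tested.

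After GDF15 few members differed detectably from control. The muscle isoform Cox8b fell 1.65-fold, and 4 further members fell by 1.18- to 1.26-fold, namely Cox7a2l, Atp5mpl, Cox7a1 and Uqcrh. At an adjusted p under 0.05 in limma, 5 of 73 members were lower, 0 higher, and 68 did not pass. That is 6.85% of the members, where 22.4% of all genes tested were called, 9.76% higher and 12.7% lower. At an unadjusted p under 0.05, 2 of the 73 members were higher and 12 lower, against 1590 and 2097 of the 11018 genes tested. Only Cox8b was called at 1.5-fold or more, 1.37% of the members against 7.85% of all genes. The median difference of the members was -0.03 and their interquartile range 0.18, against -0.02 and 0.29 over all genes. The GDF15 and CCN2 comparisons share their control arrays, and the doses differ, so their values are set side by side and not correlated.

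With its arrays given above, Cox8b differed from control by -0.73 ± 0.09 after GDF15 (SE, n = 4 per group; limma adjusted p = 2.26e-05), and 3 of 4 GDF15 arrays detected it. Over 16 alternative settings its difference ran from -0.81 to -0.34 and the call was kept, so the size of this dim probe is uncertain. The other muscle isoforms stood at -0.31 for Cox7a1 (limma adjusted p = 0.043) and -0.02 for Cox6a2 (limma adjusted p = 0.919). The Cox7a1 call was lost without control replicate 1, 2 or 3 or GDF15 replicate 1 or 4, and in 5 other settings. These were an offset of 50 (-0.19, limma adjusted p = 0.0508), the authors' processed values (-0.22, limma adjusted p = 0.0524), no detection filter (limma adjusted p = 0.0717), the 2 groups alone (limma adjusted p = 0.0513) and the trend and robust prior (limma adjusted p = 0.0523). 0 of the 5 measured cardiomyocyte markers passed after GDF15 in limma (2 at an unadjusted p under 0.05), with Nppa at -0.33 (limma adjusted p = 0.061) and Myl2 at -0.48 (limma adjusted p = 0.132). Cox4i2, at 0.11, and Cox4i1, at -0.16, did not pass.

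Atp5mpl, a small membrane protein of the ATP synthase, was the complex V gene that fell after GDF15. It read 12.12, 12.10, 11.97 and 12.01 in control, 12.00, 11.85, 11.95 and 11.93 after CCN2, and 11.77, 11.69, 11.62 and 11.83 after GDF15. The GDF15 arrays lay below all the others (log2 -0.32 ± 0.08 SE, limma adjusted p = 0.00791). With the mean of its probes it was -0.17 (limma adjusted p = 0.0896) and with median scaling -0.23 (limma adjusted p = 0.165). Cox7a2l fell by 0.34 (limma adjusted p = 0.0323) and Uqcrh by 0.24 (limma adjusted p = 0.0257). Under median scaling both lost their calls, at -0.30 and -0.14. The Cox7a2l call was also lost without control replicate 1 or 4 or GDF15 replicate 2, 3 or 4, and the Uqcrh call without control replicate 2, 3 or 4 or GDF15 replicate 2. With no detection filter the Cox7a2l call was lost too (limma adjusted p = 0.0614).

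No gene of complex I or II passed after GDF15. In complex I, 0 of 33 were called, against 22.4% of all genes, and the differences lay between -0.21 and 0.28. At an unadjusted p under 0.05, 1 of the 33 was higher and 5 lower, against 1590 and 2097 of the 11018 genes tested. Ndufa6 was at -0.18 (limma adjusted p = 0.142). In complex II 0 of 3 were called, also at the unadjusted threshold, with Sdhb at -0.05, Sdhc at -0.09 and Sdhd at 0.31. The other listed isoforms were not called either, with Cox6a1 at -0.14, Cox6b1 at -0.10, Cox6b2 at -0.14, Cox7a2 at -0.11, Ndufa4 at -0.15, Atp5g3 at -0.21 (called without GDF15 replicate 3, at -0.27, limma adjusted p = 0.0479) and Atp5g2 at 0.02. The count of 5 lower members was 3 without any one control replicate and without GDF15 replicate 2 or 4, and 1 member was higher without GDF15 replicate 1 or 3.

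Of the 113 distinct genes measured over the pathway lists, 7 were higher and 8 lower after GDF15, 13.3% in all, against 22.4% of all genes tested. After CCN2 the same genes were called in 52.2%, against 55.9%. 0 of 13 complex I assembly factors passed in limma, and 2 had an unadjusted p under 0.05. Ttc19 rose by 0.58 (limma adjusted p = 7.49e-05) and Sdhaf4, which helps load the flavin subunit of complex II, fell by 0.34 (limma adjusted p = 0.00307). Idh2 fell by 0.61 (limma adjusted p = 0.00172), Pdk4 by 0.46 and Pdp1, a pyruvate dehydrogenase phosphatase, by 0.45, and Pdk1 rose by 0.34 (limma adjusted p = 0.0217). 3 of the 9 hypoxia-linked genes, in the list drawn up with earlier results known, were higher and 0 lower, namely Egln3 at 0.99, Epas1 at 0.74 and Pdk1. Tfam, the factor that packages and transcribes mitochondrial DNA, fell by 0.34 (limma adjusted p = 0.0161), and it was the 1 regulator of biogenesis of 15 to pass. Macrophage markers were lower in 6 of 9 after GDF15, with sums of 26915 to 29124, and smooth muscle and pericyte markers in 4 of 7, with sums of 960 to 1149. Their part in the members' values was not tested.

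Set directly against each other, GDF15 and CCN2 arrays differed in 13 of 73 members, 5 higher and 8 lower after GDF15, at doses that were not the same. That is 17.8% of the members against 45.9% of all genes, of which 23.8% were higher and 22.0% lower. 2 members, 2.74%, differed by at least 1.5-fold, against 19.4% of all genes. Under median scaling the split turned to 16 higher and 2 lower, and the members' median moved from -0.0032 to 0.15 while that of all tested probes moved from -0.0033 to 0.12. The count of 8 lower members was 5 without CCN2 replicate 1 or GDF15 replicate 3.

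Cox4i2, Cox7a1 and Ndufa6 had the largest differences between the treatments. Cox4i2 was 4.48-fold lower after GDF15 than after CCN2 (log2 -2.17, limma adjusted p = 4.67e-11), and Cox4i1 was higher by 0.31 (limma adjusted p = 0.00689). Cox7a1 was lower, with a log2 difference of -0.81 (limma adjusted p = 4.84e-06). Cox6a2 was higher by 0.42 (limma adjusted p = 0.00613) and Ndufa6 by 0.50 (limma adjusted p = 7.26e-05), both without overlap of their arrays. Ndufa10, an accessory subunit of complex I, was higher by 0.40 (limma adjusted p = 0.0133), with 10.28 to 10.76 after GDF15 and 9.97 to 10.34 after CCN2, although neither treatment was called against control. Cox8b passed the test (limma adjusted p = 0.0458), but no CCN2 array detected it, its arrays overlapped and the bound did not exceed no change, so no size is given. The Cox8b call was lost in 11 of 16 alternative settings, with an adjusted p of up to 0.163, namely under median scaling, an offset of 50, no detection filter, the 2 groups alone, the trend prior, and without CCN2 replicate 1, 2 or 4 or GDF15 replicate 2, 3 or 4.

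The flavoprotein accessory subunit Ndufv3 (-0.35), the core subunit Ndufs3 (-0.34) and the accessory subunits Ndufa12 (-0.29) and Ndufs4 (-0.26) were lower after GDF15 than after CCN2. The calls of all 4 were lost under median scaling, at -0.20, -0.18, -0.12 and -0.11, and that of Ndufa12 also without CCN2 replicate 1 or GDF15 replicate 3. The Ndufs4 call was lost as well with the mean of its probes (-0.20, limma adjusted p = 0.0646). The other isoforms did not pass the test. Cox7a2 stood at -0.25 (limma adjusted p = 0.0785), and it passed without GDF15 replicate 4 (-0.36, limma adjusted p = 0.00899) and with the odd or even title number as a term (limma adjusted p = 0.0484). Under median scaling Atp5g2 passed at 0.35 (limma adjusted p = 0.0214), Cox7a2l at 0.35 (limma adjusted p = 0.0309) and Sdhc at 0.31 (limma adjusted p = 0.0273), and Cox7a2l also passed without CCN2 replicate 1 (limma adjusted p = 0.0267).

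A recurring order of arrays within groups ran through some members. For 7 of the 73, 9.59%, replicates 2 and 4 lay above replicates 1 and 3 in all 3 groups, against 3.02% of all genes tested. They were Ndufb2, Ndufb4 and Ndufb5 of the complex I membrane arm, Cox7b, and Atp5a1, Atp5e and Atp5md of complex V. Cox6a2 alone, 1.37%, showed the reverse in all 3 groups, against 1.09% of all genes. For Ndufb4 the control arrays read 6.85, 7.44, 6.82 and 7.36, the CCN2 arrays 7.06, 7.38, 7.12 and 7.54, and the GDF15 arrays 6.80, 7.47, 6.78 and 8.03. GDF15 replicate 4 was the highest array of its group for all 7, by 0.41 to 0.78 above the group mean.

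These replicates are the arrays with even numbers in their titles, the labels name no batch, and the cause was not tested. The order widens the spread of these members within groups. With the odd or even number as a term in the model, chosen after seeing the data, the Cox7b difference after CCN2 stayed 0.55 (limma adjusted p = 0.000229) and the Cox7b difference of 0.32 after GDF15 passed (limma adjusted p = 0.0331, against 0.182 without the term). Atp5md, a small protein of the synthase dimer also called DAPIT, differed by 0.57 after CCN2, with an adjusted p in limma of 0.0676 without the term and 0.00294 with it.

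**Figure D4:**
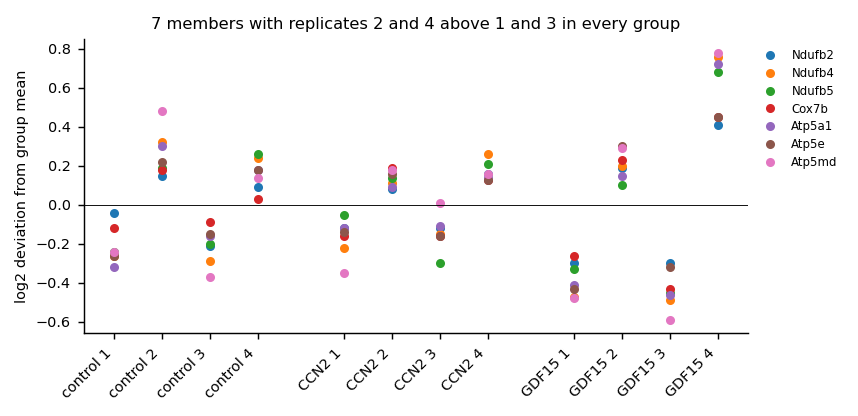
Deviation of each array from its group mean in log2 units (y axis) for the 7 members with this order, over the 12 arrays (x axis). In every group replicates 2 and 4 lie above replicates 1 and 3, and GDF15 replicate 4 lies highest, between 0.41 and 0.78.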

How the data were processed

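Transcripts were measured on 12 bead arrays, 4 in each group, with groups taken from the titles and treatment labels. The authors deposited a non-normalized table that holds, per the file headers, an intensity column and a detection p-value column for every array. GenomeStudio 2010.1 is named in the submitters' processing notes. A second deposited table holds processed intensity values. Intensities were background-corrected, quantile-normalized and taken to log2 with an offset of 16 (neqc, limma 3.58.1, R 4.3.3). The test covered the 20445 of 45281 probes for which 4 or more of the 12 arrays gave a detection p under 0.05. One group-means model (lmFit, eBayes, 9 residual degrees of freedom) gave all comparisons, two-sided, with Benjamini-Hochberg adjustment over all tested probes and a threshold of 0.05, and it was tested on simulated data. The number of arrays limits the precision.

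Gene symbols came from the platform annotation. All 73 members had a RefSeq record (GRCm38.p6) under the same symbol. The brightest probe stood for a gene. Named members were those with the largest called changes, up to 12 each way against control and 6 each way between treatments, plus the isoform sets and Sdh genes, and up to 3 genes per list. Members and lists were chosen with earlier results of these data known. Alternatives covered scaling, the authors' processed values, offset, filters, arrays in the fit, variance prior, probes and leaving out each array. Promoters were read from RefSeq's GRCm38.p6 table, and members without an entry there, such as Cox4i1, Cox4i2 and Cox6a2, are named only.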

Additional observations from a re-analysis of the deposited data

Results flagged for a closer look

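2 arrays stood apart from the other 3 of their group for a named member. For Ndufb3, a membrane arm subunit of complex I, control replicate 1 read 9.58 while the other control arrays read 9.28 to 9.31. For Ndufs4, an accessory subunit of complex I, GDF15 replicate 1 read 10.22 while the other GDF15 arrays read 10.1 to 10.12. These were 2 of 96 groups of 4 arrays looked at over 32 members, and chance alone sets an array apart in about 1 of 20 such groups. The Ndufb3 fall after CCN2 kept its call without control replicate 1.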

How the results depend on the processing

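Of 34 called differences of named members, 16 kept direction and call in every setting that gave a value. After CCN2 these were Cox4i1, Cox4i2, Cox6a2, Cox7a2l, Cox8b, Ndufa1, Ndufa6, Ndufb3 and Ndufb10, after GDF15 Cox8b, and for GDF15 against CCN2 Cox4i1, Cox4i2, Cox6a2, Cox7a1, Ndufa6 and Ndufa10. Median scaling gave 2 members higher and a median of -0.17 after CCN2, 2 lower after GDF15, and 16 higher, 2 lower and a median of 0.15 for GDF15 against CCN2. With the odd or even title number as a term, 1 member was higher after GDF15. Leaving out 1 array at a time gave 6 to 8 higher, 9 to 11 lower and a median of -0.074 to -0.036 after CCN2, 0 to 1 higher, 3 to 5 lower and a median of -0.070 to -0.027 after GDF15, and 4 to 6 higher, 5 to 12 lower and a median of -0.0077 to 0.033 for GDF15 against CCN2. Signs turned only for uncalled differences, at most 0.19 in size in the main fit (Sdhd after CCN2). Under median scaling these were Cox7a2 (-0.14) and Sdhd (-0.087) after CCN2, Atp5g2 (-0.014) after GDF15, and Cox6a1 (0.087) and Ndufa4 (0.061) for GDF15 against CCN2. With the mean of all probes it was Sdhb (-0.025) in the last comparison. Without 1 array the differences after GDF15 ran from -0.018 to 0.067 for Atp5g2, -0.082 to 0.038 for Cox6a2 and -0.083 to 0.023 for Sdhb. For GDF15 against CCN2 they ran from -0.011 to 0.096 for Sdhb, -0.065 to 0.26 for Sdhd and -0.00497 to 0.11 for Atp5g3. The cause of these shifts was not tested. Requiring detection on all 12 arrays left Cox4i2, Cox8b and Cox6b2 without a value. No paired analysis was possible because the title numbers run through all groups and none is shared. A slide block was not run because no label or header names the slides. Dim probes near background, chiefly Cox4i2, Cox8b and Cox6b2, have the least certain fold sizes.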
